A study of Mus musculus with 6 samples.

Results

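Within single-cell RNA-seq libraries of mouse Achilles tendon, 3767 of 84194 deposited barcodes carried the transcripts of Tppp3, Ly6a and Pdgfra while showing no UMI of Pi16 or Dpp4. A UMI (unique molecular identifier) count is the number of distinct RNA molecules read for a gene in a droplet. The cells were chosen by those counts: at least 1000 UMIs, at least 200 genes and at most 5% mitochondrial UMIs, then at least 1 Tppp3, 2 Ly6a and 1 Pdgfra UMI, and 0 UMIs of Scx, Pi16, Dpp4, Ptprc and Cdh5. They made up 3767 of 63329 barcodes that passed the quality limits and 3767 of 32807 barcodes with a Pdgfra UMI, and are called Pi16- Dpp4- cells below. The levels of these 8 genes are therefore a description of how the cells were picked. A count of 0 in a droplet does not show that the cell lacked the transcript.

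Tppp3 encodes a tubulin-binding protein and is known as a marker of the tendon sheath and of stem and progenitor cells there. Ly6a encodes the surface protein Sca-1, found on many stromal progenitors, and Pdgfra encodes the platelet-derived growth factor receptor of fibroblasts. In many organs, fibroblasts with Pi16, a peptidase inhibitor, and Dpp4, a surface peptidase, sit in the adventitia of vessels and in fascia and can give rise to more specialised fibroblasts. Scx encodes a transcription factor of tenocytes, Ptprc marks leukocytes and Cdh5 marks endothelium. The cells taken here share Tppp3 and Ly6a with the adventitial type and were picked at 0 UMIs of Pi16 and Dpp4.

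The mice carried Gli1-CreERT2 and the Ai9 reporter and had received tamoxifen, so that Gli1+ denotes a cell sorted for the reporter, which stays on in the descendants of cells in which Gli1 drove the recombinase, and Gli1- a cell sorted without it. Tendons came from uninjured mice or from mice 7 or 21 days after tenotomy (7 dpi and 21 dpi), with 8 mice pooled per time point, and each sort gave 1 library per time point, prepared with the 3′ version 3 chemistry. Each condition thus had 1 library and no replicate, so no p-value is given, and every interval covers counting error only. The labels describe 1 cohort of mice per time point, from which both sorts were taken. Values below follow the order uninjured, 7 dpi and 21 dpi.

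The libraries held 72196599 to 135202247 UMIs each, and any pair shared 27 to 75 barcodes, 0.328 to 0.534% of the smaller one. The Pi16- Dpp4- cells supplied 1845565 UMIs in the smallest case and 11385954 in the largest, with median depths per cell of 8979, 10789 and 10841 UMIs in Gli1+ libraries and of 6290, 10122 and 9032 UMIs in Gli1- libraries. The labels describe equal numbers of each sex, but in the Pi16- Dpp4- cells 61.4% of the Gli1+ uninjured cells had Xist without a Y-linked transcript and 24.9% the reverse, whereas Y-linked transcripts alone were found in 74.2 to 75.8% of the Gli1+ 7 dpi, Gli1- uninjured and Gli1- 7 dpi cells and Xist alone in 95.2 and 95.6% of the 21 dpi cells. In those last 5 libraries no cell showed only the transcripts of the other sex, so the uninjured sorts differed in sex, which goes against the label of 1 cohort shared by both. Time and sex cannot be told apart at 21 dpi in the Gli1- sort, nor sort and sex in uninjured tendon, and comparisons within 1 sex are given beside the counts they touch.

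The share of Pi16- Dpp4- cells among Pdgfra barcodes was largest in uninjured Gli1- tendon and smallest at 21 dpi in both sorts. In the Gli1+ libraries 189 of 1943, 597 of 5372 and 393 of 5901 Pdgfra barcodes met the rule, which are 9.73% (exact 95% binomial interval 8.45 to 11.1), 11.1% (10.3 to 12) and 6.66% (6.04 to 7.33). In the Gli1- libraries 1117 of 5922, 1014 of 7365 and 457 of 6304 did, which are 18.9% (17.9 to 19.9), 13.8% (13 to 14.6) and 7.25% (6.62 to 7.92). The intervals of the uninjured and 7 dpi Gli1+ libraries overlapped, as did those of both sorts at 21 dpi. With each barcode thinned to 2000 UMIs the shares were 7.22, 6.09 and 4.01% in Gli1+ libraries and 10.01, 10.9 and 5.69% in Gli1- libraries, so that the uninjured Gli1- library no longer had the largest and the order of uninjured and 7 dpi turned in both sorts. The thinned uninjured and 7 dpi shares were 77 of 1066 and 136 of 2234 (Gli1+) and 380 of 3797 and 348 of 3182 (Gli1-). Their intervals overlapped in both sorts, so no thinned order of uninjured and 7 dpi is read. The plot of shares by library shows both sets.

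**Figure D1:**
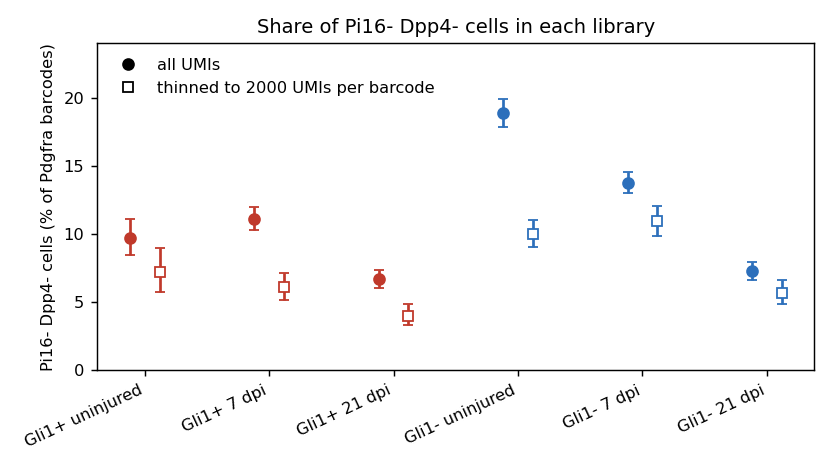
Share of Pi16- Dpp4- cells among barcodes with a Pdgfra UMI (y axis, percent) in each library (x axis), with exact 95% binomial intervals for counting error, beside the shares after thinning every barcode to 2000 UMIs. The unthinned shares run from 6.66 to 18.9%, and both 21 dpi libraries lie at the low end.

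Taken against all cells that met the rule apart from Pi16 and Dpp4, the cells without either made up 25.1, 36.7 and 25.1% in Gli1+ libraries and 45.8, 34.9 and 25% in Gli1- libraries. Cells with a Pi16 or Dpp4 UMI, called Pi16+ or Dpp4+ cells below, were thus the larger group in every library. They made up 7347 of the 29040 Pdgfra barcodes outside the Pi16- Dpp4- cells, which are called other Pdgfra barcodes below. In the Gli1+ uninjured library the steps ran from 1943 Pdgfra barcodes to 1369 with 2 Ly6a UMIs, 961 with Tppp3, 886 without Scx, 765 without Ptprc, 752 without Cdh5, 259 without Pi16 and 189 without Dpp4. Just inside the Ly6a limit, 20, 72 and 49 Gli1+ and 174, 78 and 58 Gli1- cells had exactly 2 Ly6a UMIs. Just outside it, 32, 75 and 59 Gli1+ and 220, 52 and 78 Gli1- barcodes had 1 Ly6a UMI and met the rest of the rule. The Tppp3 limit was closer to the bulk of the cells, since 61, 347 and 190 Gli1+ and 433, 486 and 201 Gli1- cells had a single Tppp3 UMI, and 141, 834 and 728 and 706, 877 and 675 barcodes met the rest of the rule with none.

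Of the genes that name these cells, Inmt was higher in them than in the other Pdgfra barcodes of the same library in 6 of 6 libraries, whereas Myoc and C7 were not. Inmt encodes indolethylamine N-methyltransferase, an enzyme that methylates tryptamine and related amines. Its level, in counts per 1000000 UMIs (CPM) summed over the cells, was 286, 7.81 and 33.2 in the Gli1+ libraries against 154, 6.27 and 14.9 in the other Pdgfra barcodes. In the Gli1- libraries it was 1248, 42.2 and 56.6 CPM against 989, 23.6 and 28.8 CPM. The difference was below 2-fold in 5 of 6 libraries, and the level was far higher before injury than after it in both groups. For Gli1+ at 7 dpi, the thinned shares of barcodes with an Inmt UMI were 2.52% (interval 1.42 to 4.12) and 1.55% (1.22 to 1.94). These intervals overlapped, so no difference beyond counting error is read there. The Pi16+ or Dpp4+ cells of that library had a larger thinned share, 2.92%. In every other library their thinned share was below that of the Pi16- Dpp4- cells. After thinning to 2000 UMIs, an Inmt UMI was found in 30.2% of the Gli1+ uninjured cells, 19.2% of the other Pdgfra barcodes and 0.433% of barcodes with Ptprc or Cdh5 UMIs but no Pdgfra UMI. Unthinned, these shares were 54.5, 31.9 and 1.48%, at median depths of 8979, 9561 and 7806.5 UMIs. In the Gli1- uninjured library the thinned shares were 75.2, 64.5 and 9.85% and the unthinned ones 90.2, 80.3 and 15.4%, at 6290, 6118 and 3055 UMIs, so Inmt was also read in other cell types, most in the library with the highest level.

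Myoc, which encodes the extracellular glycoprotein myocilin, measured 1842, 44.3 and 93 CPM in the Gli1+ cells against 2549, 47.3 and 175 CPM in the other Pdgfra barcodes, and 879.7, 125 and 221 CPM against 819, 64.5 and 172 CPM in the Gli1- libraries. It was lower than in the comparison group in every Gli1+ and higher in every Gli1- library. C7, a late component of the complement cascade, measured 117, 2.65 and 3.05 CPM in the Gli1+ and 83, 7.29 and 11 CPM in the Gli1- cells, against 144, 3.36 and 4.43 and 103, 5.87 and 7.71 CPM. It was lower than in the other Pdgfra barcodes in the 3 Gli1+ libraries and in Gli1- uninjured cells, and higher in the other two Gli1- libraries. In Gli1+ uninjured tendon the thinned shares of cells with a UMI lay the other way, at 68.8 against 63.3% for Myoc and 14.3 against 9.97% for C7 (84.1 against 75.5% and 18 against 16.9% unthinned). For C7 they also did so in Gli1+ 21 dpi (1.02 against 0.886%) and Gli1- 7 dpi (1.39 against 1.71%). The same held for C7 in Gli1- 21 dpi (1.55 against 1.81%) and Myoc in Gli1+ 7 dpi (7.23 against 7.13%). No order of the gene is read in these libraries. Among the individual cells, 15, 2 and 2 Gli1+ and 111, 7 and 2 Gli1- cells carried all of Inmt, Myoc and C7, while 4.76, 78.6 and 76.1% of the Gli1+ and 2.51, 56.2 and 59.1% of the Gli1- cells carried none of them. These genes do not set the cells apart as one kind, so they are described by the counts that chose them. The plot of marker levels gives the same values.

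**Figure D2:**
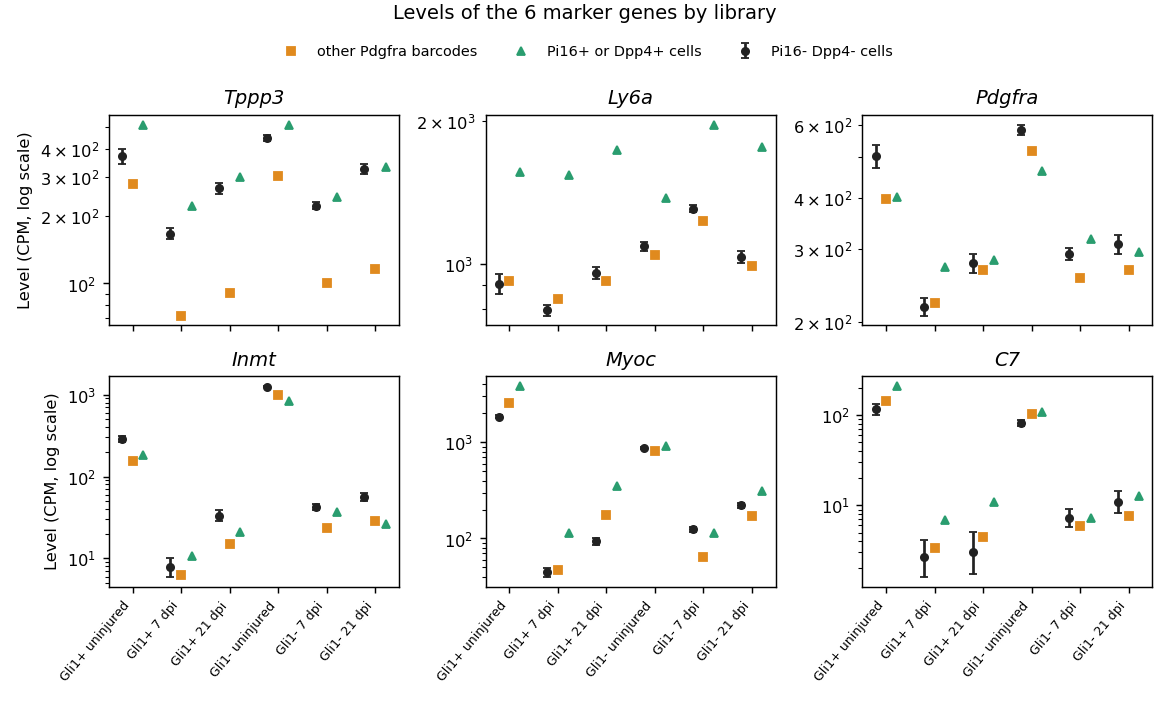
Level of the marker genes (y axis, CPM on a log scale) by library (x axis) in Pi16- Dpp4- cells, other Pdgfra barcodes and Pi16+ or Dpp4+ cells, which are part of the other Pdgfra barcodes. Each point is the sum over 1 library and the bars on the Pi16- Dpp4- cells are exact 95% Poisson intervals for counting error. Inmt, Myoc and C7 lie far lower at 7 and 21 dpi than in uninjured tendon in all groups of cells, and of these 3 genes only Inmt is above the other Pdgfra barcodes in all 6 libraries.

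The genes used by the rule are given as a description. Tppp3 was 371, 167 and 267 CPM in the Gli1+ and 447, 223 and 325 CPM in the Gli1- cells against 278, 71.7 and 90.6 and 304, 101 and 116 CPM in the other Pdgfra barcodes. Ly6a was 906, 796 and 956 and 1087, 1307 and 1033 CPM against 921, 842 and 920.2 and 1043, 1228 and 989 CPM, a small difference in every library. Pdgfra itself was 503, 218 and 277 CPM in the Gli1+ and 583, 292 and 308 CPM in the Gli1- cells, lowest at 7 dpi in both sorts. Gli1, the transcription factor of Hedgehog signalling whose promoter drives the recombinase, was low in both sorts, at 13, 2.37 and 3.66 CPM in the Gli1+ and 7.8, 3.6 and 3.38 CPM in the Gli1- cells. In barcodes with Ptprc or Cdh5 UMIs it was 1.33, 4.45 and 4.82 and 4.33, 1.42 and 1.86 CPM. In the Gli1+ libraries this level exceeded that of the Pi16- Dpp4- cells at 7 and 21 dpi. The shares of barcodes with a Gli1 UMI lay the other way there, at 1.67 against 2.01% and 2.73 against 3.82%. The thinned shares were 0 against 0.672% and 1.32 against 1.53%, and their intervals overlapped. No order of Gli1 between these groups is therefore read in the Gli1+ libraries at 7 and 21 dpi.

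The Pi16- Dpp4- cells were not uniform. Clustering of all 3767 cells without the 8 rule genes gave 11 clusters, which are given by number and leading genes only. Cluster 3 (673 cells) was led by Rtl4, Grm8, Lrrtm3, Rtn1 and Abca8b and held 1407 CPM of Inmt. Cluster 1 (403 cells) was led by Chad, a cartilage and tendon matrix protein, Pde4c, Angptl7, Meox1 and Myoc, the last at 1879.8 CPM. A single cell held 189 of its 404 UMIs of Chad. Cluster 2 (348 cells) was led by Gria4, the BMP family ligand Gdf10, C7 and the lymphoid chemokines Ccl19 and Cxcl13. These clusters drew most of their cells from the uninjured libraries, with cluster 3 taking 89.6% from Gli1- uninjured tendon.

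Further clusters were led by genes of cycling and of matrix. Cluster 5 (529 cells) was led by the mitotic genes Tpx2, Cenpf, Birc5 and Mki67, and 86.2% of it came from the Gli1+ 7 dpi library. Of its 529 cells, 138, 115, 171 and 141 had a UMI of these genes, so for each of them most cells had none. Cluster 9 (506 cells) was led by H19, Ptn, the Wnt inhibitor Sfrp2 and the matrix protein Postn, and cluster 10 (357 cells) by Vtn, Cilp, Podn, the elastin gene Eln and Tafa1. The Gli1- 7 dpi library supplied 92.9% of cluster 9 and 91.3% of cluster 10. Cluster 7 (506 cells) was led by Snorc, Bglap2, Reg3g, F13a1, Col2a1, Clic5, Col22a1 and Slurp1, only in part genes of cartilage, bone and joint lining. All 431 UMIs of Reg3g were in 1 cell. The cluster carried 4207 CPM of the lubricin gene Prg4 and held 235 Gli1+ and 239 Gli1- cells of 21 dpi. In this cluster the cell with most UMIs of each gene held 248 of 448 for Snorc, 263 of 402 for Bglap2, 734 of 2665 for Col2a1 and 240 of 302 for Bglap, and 21, 30, 95 and 22 of its cells had any. A cluster drawn mostly from 1 library cannot be told apart from that library.

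The remaining clusters were smaller. Cluster 4 (157 cells) was led by Mmp10, Ednrb, Il11, Rgs5 and Saa3, and Scrublet, a doublet caller, marked 29.3% of it; its 5 mural markers summed to 3096 CPM against 395 CPM in the other Pi16- Dpp4- cells. Cluster 6 (136 cells) was led by Thrsp, Shisa3, Fetub, Trf and Ngfr, with 22685 CPM of the lipid carrier Apod. Cluster 8 (119 cells) was led by Cdcp1, Krt5, Epcam and Krt14, genes of epithelium; its 4 epidermal markers summed to 19747 CPM against 348 CPM in the other Pi16- Dpp4- cells, 82.4% of it came from the Gli1+ 7 dpi library and 38.7% was marked by Scrublet. Cluster 11 (33 cells) was led by Nova2, Shank3, Tie1, Adgrl4 and Ptprb, with endothelial markers summing to 497 CPM against 29.8 CPM and 75.8% marked. Clusters 8 and 11 together held 152 cells (4.04%), of which 99 were in the Gli1+ 7 dpi library, 16.6% of its Pi16- Dpp4- cells. The heat map of gene lists by cluster shows where the plotted groups of genes were high.

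**Figure D3:**
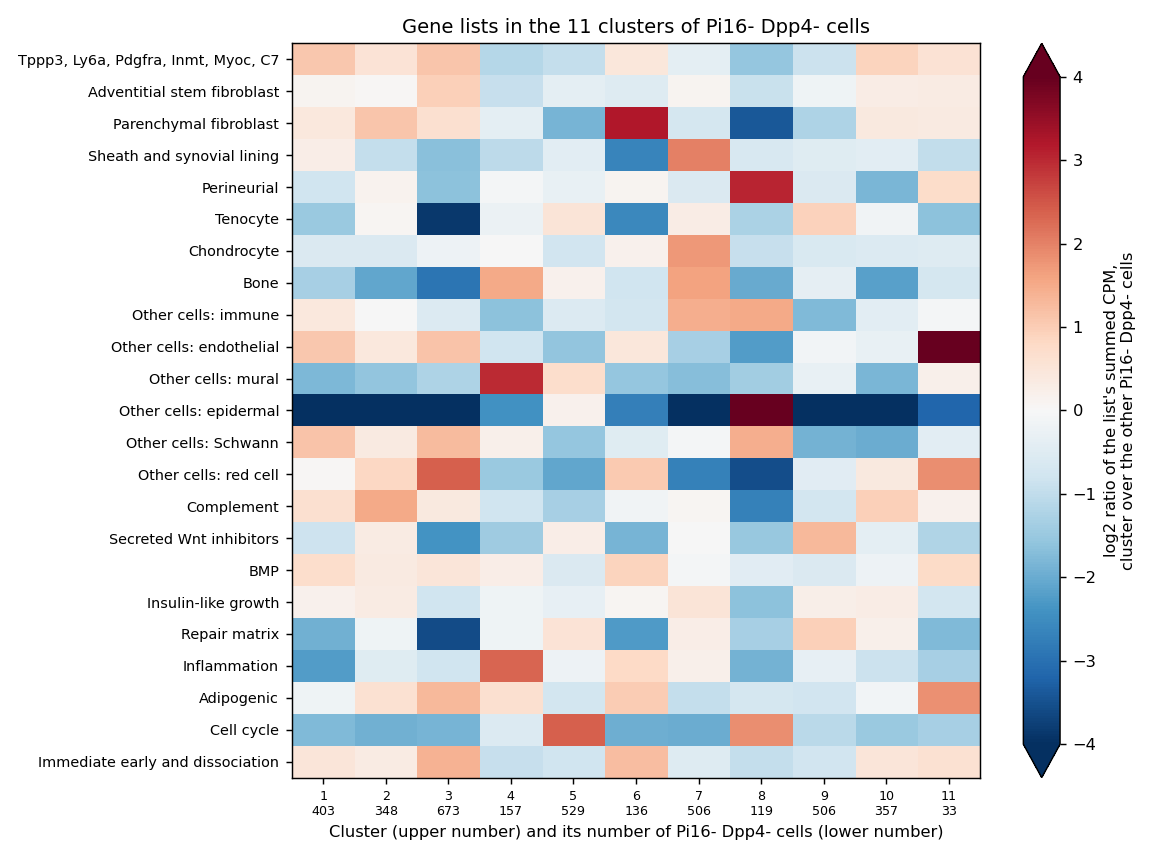
log2 ratio of the summed CPM of each plotted gene list (rows) in a cluster over all other Pi16- Dpp4- cells (colour; scale ends at -4 and 4), for the 11 clusters (columns, with the number of cells). The skeletal muscle, PDGF, GNAS/PKA and Hedgehog lists are not plotted. Epidermal genes stand out in cluster 8, endothelial genes in cluster 11, mural genes in cluster 4, and cell cycle genes in clusters 8 and 5, at 610 and 570 CPM.

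Against the other Pdgfra barcodes of the same library, which include the Pi16+ or Dpp4+ cells, almost no gene met the rule for a call. A gene was called where its log2 ratio of CPM, with 0.5 counts added to each sum, was at least 1 in size and of the same sign in all 6 libraries, among genes with a mean of at least 10 CPM. Of 8925 genes tested, 0 (0%) were called higher and 1 (0.0112%) lower. The lower gene was Hbb-bs, a beta globin of red cells, at 3.25, 4.74 and 0.407 CPM in the Gli1+ and 76.3, 19.6 and 9.08 CPM in the Gli1- cells against 50.1, 27.4 and 1.56 and 488, 40.1 and 59.4 CPM. With the barcodes marked as doublets by Scrublet left out, 0 genes were called lower. At a log2 ratio of 0.5, a limit added after the data were seen, 1 gene (0.0112%) was higher and 18 (0.202%) were lower. The higher one was Tafa1, a secreted chemokine-like protein, at 3.79, 16.6, 15.9, 24.8, 11.1 and 13.3 CPM over the 3 Gli1+ and then the 3 Gli1- libraries, against 2.58, 10.1, 7.47, 11.4, 4.09 and 9.07 CPM.

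The genes lower by 0.5, named after their values were seen, included the globins Hba-a1 and Hbb-bt, the angiopoietin receptor Tek, Egfl7, Gpihbp1, Selp, Ackr1, the tenocyte genes Fmod and Tnmd, the fibrillar collagen Col11a1 and the bone protein Ibsp. The cells had been picked without Scx and Cdh5 UMIs, so the lower level of tenocyte genes and of Egfl7, a secreted protein of endothelium, cannot be told apart from the choice. Tek and Ackr1 were at their highest in the Pi16+ or Dpp4+ cells, also picked without Cdh5. Those cells are part of the other Pdgfra barcodes, so the lower level of Tek and Ackr1 cannot be told apart from the choice by Pi16 and Dpp4. In the Pi16+ or Dpp4+ cells Tek was 181, 27.2, 55.2, 146, 43.4 and 55.8 CPM over the 3 Gli1+ and then the 3 Gli1- libraries. It was 89.4, 14, 18.8, 119, 27.7 and 27 CPM in the other Pdgfra barcodes and 46.1, 8.79, 2.85, 70.5, 18.4 and 13.5 CPM in the Pi16- Dpp4- cells. Tnmd, a membrane protein of mature tenocytes, was 22.2, 45.9 and 72.3 CPM in the Gli1+ and 6.5, 49.8 and 99.8 CPM in the Gli1- cells against 90.7, 83.1 and 207 and 10.9, 76.4 and 162 CPM. Apart from the red cell list with Hbb-bs, none of the lists used here, among them those for parenchymal fibroblasts, joint lining, cartilage, bone, complement, BMP, Hedgehog and repair matrix, had a gene called at a log2 ratio of 1 in this comparison.

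The 7347 Pi16+ or Dpp4+ cells met the rest of the rule, and against them 1 of 8819 genes (0.0113%) was called higher and 24 (0.272%) lower. The lower genes held several markers of adventitial fibroblasts. Cd55, a surface regulator of complement, was 159.8, 49.1 and 109 CPM in the Gli1+ Pi16- Dpp4- cells against 436, 132 and 286 CPM in the Pi16+ or Dpp4+ cells, and 118, 63.9 and 96 against 376, 178 and 233 CPM in the Gli1- libraries. Anxa3, a phospholipid-binding annexin, was 80.2, 48.7 and 44 against 303, 122 and 109 CPM and 129.8, 73.6 and 47.1 against 351, 164 and 115 CPM. Every library showed the lower level for both genes. Efhd1, a calcium-binding mitochondrial protein, was 29.8, 5.58 and 7.94 against 102, 19.2 and 41.3 CPM and 16.9, 9.84 and 12.5 against 71.8, 28 and 44.3 CPM.

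Of the 12 adventitial genes, 8 were tested, 4 were called lower (Cd55, Anxa3, Sema3c and Efhd1) and 7 were below 0 on the log2 scale in all 6 libraries, where 8.02% of all tested genes were. Since Pi16 and Dpp4 chose both groups of cells, this is a description, and no other list had a called gene. Pcolce2, an enhancer of procollagen processing, was also called lower, at 316, 20.4 and 46.2 against 833, 71.4 and 249 CPM in the Gli1+ and 221, 48.2 and 75.6 against 574, 108 and 209 CPM in the Gli1- libraries. Cmah, the hydroxylase that makes N-glycolylneuraminic acid, was 0.542, 9.9 and 5.29 against 54.2, 33.8 and 25.1 CPM and 4.68, 11.4 and 6.54 against 89.9, 48 and 32.6 CPM. The dual oxidase Duox1 and its maturation factor Duoxa1, the carbonic anhydrase-related Car8, the atypical chemokine receptor Ackr1, the adhesion protein Cadm3, the glycosidase Engase and the tyrosine kinase Syk were the other named genes called lower. The gene called higher was Adgrl3, an adhesion receptor of the latrophilin family, at 8.67, 109 and 52.7 against 1.66, 51 and 18.6 CPM and 20.2, 72.7 and 45.4 against 7.24, 36.2 and 20.5 CPM. Its level in the Pi16- Dpp4- cells was highest at 7 dpi in both sorts. With TMM scaling or without cluster 4, 0 genes were called higher.

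At the log2 limit of 0.5, 18 genes (0.204%) were higher and 73 (0.828%) lower than in the Pi16+ or Dpp4+ cells. The higher genes included Spp1, the matrix protein osteopontin, Smoc1, a modulator of BMP signalling, the endothelin receptor Ednrb, the peptidase Mme and the matrix genes Edil3 and Col18a1. Spp1 was 17.9, 171, 506, 21.1, 220.01 and 924 CPM over the 3 Gli1+ and then the 3 Gli1- libraries against 2.87, 90.8, 157, 3.21, 108 and 303 CPM. The lower genes added Cd248, Cd34, Axl, Efemp1, Fbn1, the hyaluronan synthase Has1 and the Wnt inhibitor Sfrp4. These genes were taken from the longer list after their values were seen. The plot against Pi16+ or Dpp4+ cells shows the named genes in each library.

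**Figure D4:**
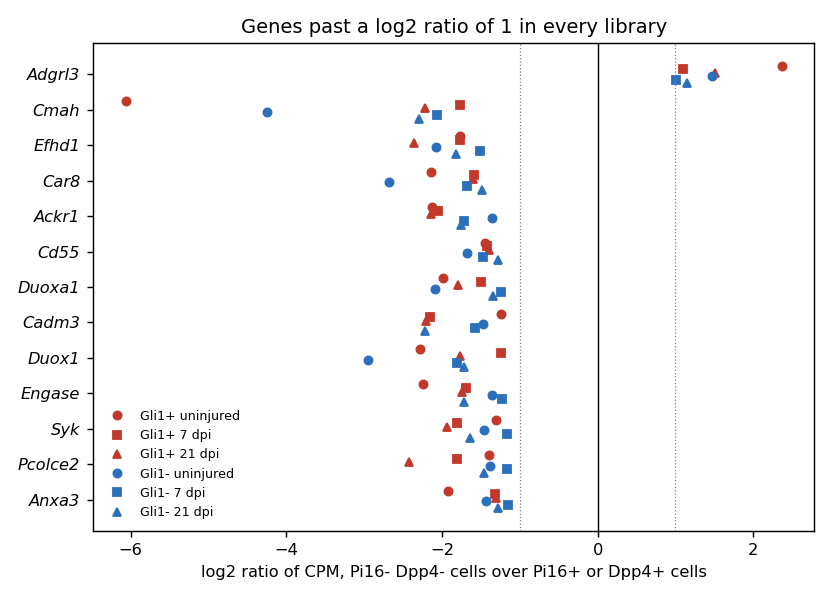
log2 ratio of CPM (0.5 counts added) in Pi16- Dpp4- cells over Pi16+ or Dpp4+ cells of the same library (x axis) for named genes (rows); each point is 1 library. All 6 points lie at or beyond 1 in size for every gene shown, with Adgrl3 on the higher side and Cd55, Anxa3 and Efhd1 among the lower.

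After tenotomy the Pi16- Dpp4- cells changed widely. A gene was called where both sorts passed a log2 ratio of 1 with the same sign. At 7 dpi 629 of 8902 genes (7.07%) were higher and 585 (6.57%) lower than in uninjured tendon, and at 21 dpi 466 (5.23%) were higher and 537 (6.03%) lower. Of these, 344 were higher at both times (54.7% of the 7 dpi and 73.8% of the 21 dpi genes) and 346 lower (59.1 and 64.4%). Both times were set against the same uninjured libraries. Below, "rose" and "fell" are used for called genes only.

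Within male cells, where 450 Gli1+ 7 dpi cells faced 47 uninjured ones, 565 of the 629 higher and 554 of the 585 lower genes passed a ratio of 1 in the Gli1+ sort, and 621 of 629 and 582 of 585 did in the Gli1- sort. No cell of these Gli1- libraries was called female, so their male set left out only cells without a sex call. The Gli1- figures therefore say nothing about sex. Within female Gli1+ cells, 374 at 21 dpi against 116, the figures were 420 of 466 and 473 of 537. The Gli1- sort had no female uninjured cell by this criterion. The median log2 ratio of all tested genes was -0.06 and 0.01 at 7 dpi and -0.11 and 0.02 at 21 dpi in the Gli1+ and Gli1- sorts. TMM scaling moved the Gli1+ medians to 0.15 and 0.18, and the 21 dpi split from 466 higher and 537 lower (46.5% higher) to 653 and 401 (62.0%).

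Genes of repair matrix rose together. At 7 dpi 9 of 10 rose (all but Fn1), with list medians of 3.37 and 5.53 on the log2 scale in the Gli1+ and Gli1- cells, and at 21 dpi 9 of 10 rose (all but Col5a1), with medians of 2.79 and 4.74. Postn, a matricellular protein of healing tissue, was 107, 2898 and 1241 CPM in the Gli1+ and 18.9, 2992 and 1139.6 CPM in the Gli1- cells. Tnc, the large matrix glycoprotein tenascin-C, was 118, 1972 and 1041 and 2.34, 1534 and 1006 CPM. Both genes were lowest in uninjured tendon and highest at 7 dpi in both sorts. Cthrc1, a secreted protein of activated fibroblasts, was 36.8, 638 and 355 and 2.6, 521 and 294 CPM, and Col3a1, the collagen of early repair, 2229.7, 11736 and 12108 and 3832, 16737 and 11541 CPM.

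The rise was shared with other cells of the libraries. The other Pdgfra barcodes gave list medians of 3.002 and 4.45 at 7 dpi and 2.70 and 3.72 at 21 dpi. In barcodes with Ptprc or Cdh5 UMIs and no Pdgfra UMI, Postn was 48.3, 1718 and 252 CPM in the Gli1+ and 73.6, 1574 and 372 CPM in the Gli1- libraries. Postn was thus also found in barcodes of other cell types, and the part of free RNA or doublets in the result was not tested.

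Genes of tendon rose in part. Of 9 tenocyte genes tested, Tnmd, Col11a1 and Col1a1 rose and Cilp2 and Chad fell at 7 dpi, and at 21 dpi Tnmd, Thbs4, Kera, Col11a1 and Col1a1 rose and Chad fell. Col1a1, the main collagen of tendon, was 2356, 13202 and 11475 CPM in the Gli1+ and 3269.9, 16196 and 10329.6 CPM in the Gli1- cells. Tnmd passed from 22.2 to 72.3 CPM and from 6.5 to 99.8 CPM at 21 dpi, although the cells had been picked without Scx. Chad was 103, 2.93 and 16.7 CPM and 32.1, 1.14 and 14.1 CPM, lower by 34.6-fold and 27.1-fold at 7 dpi. A single cell of cluster 1 held 189 of the 404 UMIs of Chad in that cluster. Only the uninjured sums of Chad were large enough to hold that cell. The uninjured level and the folds of Chad in 1 sort thus rest mostly on 1 cell, and a call needs both sorts. Fmod, a small proteoglycan that binds collagen fibrils, was 242, 83.9 and 240.4 and 26.4, 60.6 and 376 CPM and was not called at either time.

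Genes of cartilage and bone rose in part, and of those named here Col2a1, Acan, Ibsp and Spp1 were highest at 21 dpi and Runx2 at 7 dpi in both sorts. Of 7 cartilage genes tested, Col2a1, Acan and Snorc rose at 7 dpi, joined by Hapln1 at 21 dpi, with list medians of 0.70 and 2.49 at 7 dpi and 3.01 and 6.11 at 21 dpi. With the genes that had no UMI in an uninjured library set at their lower bound, the Gli1+ median at 7 dpi was 0.27. Col2a1, the collagen of cartilage, was 0.542, 11.6 and 217 CPM in the Gli1+ and 0, 73.2 and 207 CPM in the Gli1- cells, and Acan, its main proteoglycan, 2.71, 55.6 and 78 and 1.82, 74.6 and 129.8 CPM. Of 5 bone genes tested, Runx2 and Spp1 rose and Alpl fell at 7 dpi, and Runx2, Bglap, Ibsp and Spp1 rose at 21 dpi, with list medians of 0.36 and 1.59 at 7 dpi and 1.96 and 3.93 at 21 dpi. In the other Pdgfra barcodes the bone medians were -2.76 and -0.38 and then -0.23 and 1.31, and the cartilage medians 0.37 and 3.46 and then 3.02 and 5.86. The bone genes summed to 76.4, 271 and 827 CPM in the Gli1+ and 96.8, 337 and 1209 CPM in the Gli1- cells, against 2034, 346 and 1824 and 164, 332 and 1796 CPM in the other Pdgfra barcodes, so that the cells started lower and were still lower at 21 dpi. Ibsp, a sialoprotein of mineralising matrix, was 0, 0.279 and 185 CPM and 0.52, 1.84 and 179 CPM. Snorc, a cartilage proteoglycan, was 0, 0.558 and 36 and 0.13, 1.05 and 58 CPM, so that its call at 7 dpi rested on few UMIs. In cluster 7 the cell with most UMIs of a gene held 248 of 448 for Snorc, 734 of 2665 for Col2a1 and 240 of 302 for Bglap. The levels and calls of these genes thus rest in part on single cells.

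These transcripts were also found outside the fibroblasts. In barcodes with Ptprc or Cdh5 UMIs, Col2a1 was 1.68, 13.3 and 137 CPM in the Gli1+ and 0.866, 128 and 638 CPM in the Gli1- libraries, which was above the Pi16- Dpp4- cells in 5 of 6 libraries. Ibsp was 1.3, 1.78 and 14.1 and 0.361, 3.38 and 314 CPM in them, above the Pi16- Dpp4- cells in 4 of 6 libraries and far below them at 21 dpi in the Gli1+ one. Runx2, the transcription factor of bone and hypertrophic cartilage, was 21.7, 92.5 and 62.3 CPM in the Gli1+ and 33.4, 100.5 and 69.4 CPM in the Gli1- cells, against 111, 45.3 and 23.3 and 7.58, 32.8 and 24.7 CPM in the Ptprc or Cdh5 barcodes, which were higher in Gli1+ uninjured tendon only. The part of free RNA in these levels was not tested. The plot of gene lists over time sets these groups beside each other.

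**Figure D5:**
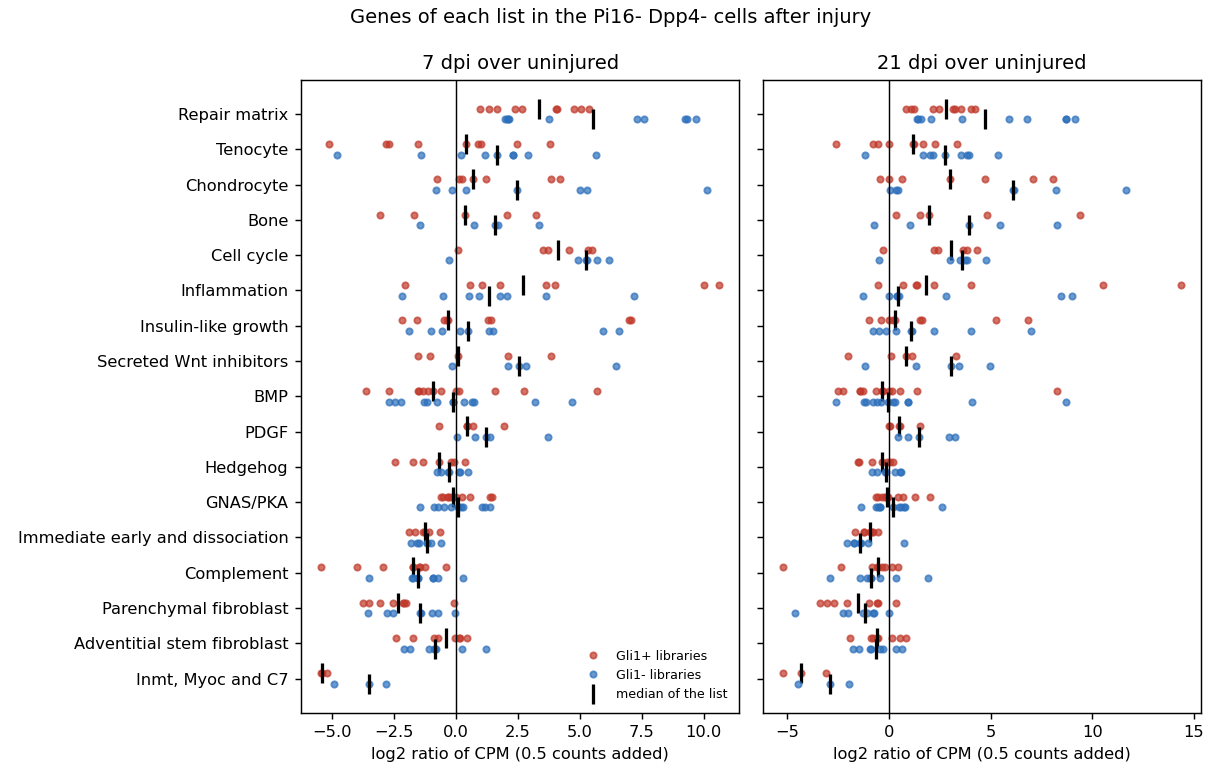
log2 ratio of CPM (0.5 counts added) over the uninjured library of the same sort for each tested gene of the lists (rows) in Pi16- Dpp4- cells, with the list median marked, for both sorts and times. Repair matrix and cell cycle genes lie mostly above 0 and parenchymal fibroblast genes mostly below 0 in both sorts.

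Most cell cycle genes tested rose in both sorts at both times. Of 6 tested, Mki67, Top2a, Cdk1, Birc5 and Cenpf rose at 7 and at 21 dpi, with medians of 4.14 and 5.26 at 7 dpi and 3.02 and 3.59 at 21 dpi. Mki67, a protein of dividing cells, was 4.33, 53.5 and 21.2 CPM in the Gli1+ and 0.91, 36.8 and 7.6 CPM in the Gli1- cells. Top2a, the topoisomerase that separates replicated DNA, was 1.63, 75.9 and 26.7 and 0.65, 37.6 and 7.81 CPM. The levels were highest at 7 dpi, and the Gli1+ cells exceeded the Gli1- cells at that time for both genes. The 8 listed genes summed to 68.3, 374 and 171 CPM in the Gli1+ and 56.4, 235 and 97.5 CPM in the Gli1- cells, and to 68.8, 332 and 109.6 and 56.2, 229.5 and 97.4 CPM without clusters 8 and 11, which took the Gli1+ sum at 21 dpi down by more than 1.5-fold. In the other Pdgfra barcodes the medians were 2.74 and 4.42 at 7 dpi and 0.87 and 2.83 at 21 dpi.

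Inflammatory genes rose in part, some by wide margins. Of 8 tested, Saa3, Cxcl5, Ccl2 and Ccl7 rose and Cxcl14 fell at 7 dpi, and Saa3, Cxcl5 and Lcn2 rose at 21 dpi. Saa3, an acute phase apolipoprotein, was 0, 281 and 5788 CPM in the Gli1+ and 17.6, 222 and 9002 CPM in the Gli1- cells, at least 3561-fold and 511-fold higher at 21 dpi. The bound is set against a floor of 3 counts in the library without a UMI. Cluster 4, which held 15.3 and 13.3% of the 21 dpi cells of the Gli1+ and Gli1- sorts, had 18299 CPM of Saa3. Without that cluster, a setting added after the data were seen, Saa3 was 0, 283 and 2712 and 17.9, 225 and 3656 CPM and Cxcl5 0, 426 and 156 and 2.38, 358 and 476 CPM. The Ptprc or Cdh5 barcodes held 128 and 859.7 CPM of Saa3 at 21 dpi. Cxcl5, a chemokine for neutrophils, was 0, 429 and 394 and 2.34, 353 and 842 CPM. Hp, the haptoglobin that binds free haemoglobin, reached 1121 and 2326 CPM at 21 dpi from 2.17 and 5.98 CPM.

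In insulin-like growth signalling, 4 of 9 tested genes rose at both times: the ligand Igf1, the imprinted noncoding RNA H19 and the binding proteins Igfbp2 and Igfbp4. Igf1 was 301, 802 and 861 CPM in the Gli1+ and 462, 1321 and 965 CPM in the Gli1- cells. H19 was 2.17, 308 and 94.9 and 5.33, 516 and 87 CPM, 126-fold and 95.6-fold higher at 7 dpi. None of the 9 fell, and list medians were -0.32 and 0.51 at 7 dpi and 0.30 and 1.06 at 21 dpi.

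Among 13 tested BMP genes the receptor Bmpr1b and the antagonist Grem1 rose at both times, while the ligands Bmp4 and Bmp6 fell at both and Bmp2 and the target Id3 fell at 7 dpi. Bmp4 was 112, 9.2 and 19.95 CPM in the Gli1+ and 164, 25.3 and 27.2 CPM in the Gli1- cells. Grem1, which binds BMP ligands outside the cell, was 0, 14.1 and 82 and 0.13, 1.76 and 82.5 CPM. The ligands called were thus lower and the antagonist higher in both sorts. Of 5 secreted Wnt inhibitors, Sfrp1 and Sfrp2 rose at 7 dpi, and Sfrp2 and Dkk3 rose and Dkk2 fell at 21 dpi. Sfrp2 was 26.6, 389.9 and 261 and 7.8, 695 and 248 CPM.

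The Hedgehog and GNAS/PKA lists are tied to the question of the study, and over all tested genes 7.07% rose and 6.57% fell at 7 dpi and 5.23% rose and 6.03% fell at 21 dpi. None of the 7 tested Hedgehog genes was called at either time, with medians of -0.65 and -0.27 at 7 dpi and -0.36 and -0.16 at 21 dpi. Gli1 and Hhip, known as targets of the pathway, lay under the mean of 10 CPM and were not tested. Gli1 changed by -2.44 and -1.11 at 7 dpi and by -1.82 and -1.18 at 21 dpi in the Gli1+ and Gli1- cells, and Hhip by -1.01 and -1.72 and by -1.03 and -1.05. Both had their highest level before injury in both sorts. The counting intervals of Hhip in the Gli1+ cells included 0 at both times. Of 11 GNAS/PKA genes, Creb3, a transcription factor of the endoplasmic reticulum, and the cyclic AMP phosphodiesterase Pde4d rose at 7 dpi and Pde4d at 21 dpi. Gnas, the stimulatory G protein subunit that activates adenylyl cyclase, was 1348, 1605 and 1249.8 CPM in the Gli1+ and 781, 1794 and 1284 CPM in the Gli1- cells. It was not called, since the Gli1+ cells did not pass the ratio at 7 dpi and neither sort did at 21 dpi. Pde4d was 136, 377 and 549 and 104, 273 and 626 CPM. Of 5 PDGF genes, the ligand Pdgfc rose at 7 dpi and Pdgfa at 21 dpi.

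Inmt, Myoc, C7 and several genes of parenchymal fibroblasts fell. Inmt was 36.3-fold and 29.5-fold lower at 7 dpi in the Gli1+ and Gli1- cells, and Myoc and C7 also fell at both times. Of 8 parenchymal fibroblast genes, Hsd11b1, Penk, Col4a1, Apod and Lpl fell at 7 dpi and Col15a1, Hsd11b1, Penk and Apod at 21 dpi. Apod was 3437, 304 and 821 CPM in the Gli1+ and 4614, 685 and 1138 CPM in the Gli1- cells. Penk, the proenkephalin precursor, was 138, 16.6 and 16.7 and 189, 32.7 and 38.8 CPM. List medians were -2.31 and -1.42 at 7 dpi and -1.52 and -1.19 at 21 dpi, against -1.78 and -1.64 at 7 dpi and -1.04 and -1.31 at 21 dpi in the other Pdgfra barcodes.

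Of 9 tested complement genes, those that fell at 7 dpi included C7, C3, C4b and Clu, and C7 fell at 21 dpi. List medians were -1.71 and -1.51 at 7 dpi and -0.55 and -0.91 at 21 dpi in the Gli1+ and Gli1- cells. In the other Pdgfra barcodes they were -0.95 and -0.98 and then 0.08 and -0.50. C3, the central component of the cascade, was 585, 175 and 324 CPM in the Gli1+ and 1269.6, 442 and 465 CPM in the Gli1- cells. None of 8 tested adventitial genes was called at either time, with medians of -0.38 and -0.85 at 7 dpi and -0.57 and -0.65 at 21 dpi. None of 4 adipogenic genes was called. Of 7 genes of joint and sheath lining, Cd44, the hyaluronan receptor, rose at both times. Prg4, the lubricin gene, was 3123, 206 and 1073 CPM and 912, 649 and 1802 CPM, with the lowest level at 7 dpi in both sorts, and was not called.

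Several immediate early genes fell. Jun, Junb, Egr1 and the heat shock gene Hspa1a fell at 7 dpi and Jun, Junb and Egr1 at 21 dpi, of 7 tested. Jun, a subunit of the transcription factor AP-1, was 6253, 2648 and 2695 CPM in the Gli1+ and 7471, 3342 and 2792 CPM in the Gli1- cells. These genes also respond to tissue dissociation, and the part of that in the result was not tested.

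The genes with the widest fall included Angptl7, an angiopoietin-like secreted protein, at 365, 6.28 and 59.9 CPM in the Gli1+ and 78.8, 2.11 and 81.3 CPM in the Gli1- cells. Galnt15, an enzyme of protein glycosylation, was 148, 1.81 and 26.5 and 155, 5.09 and 37.4 CPM, lower by 79-fold and 30.2-fold at 7 dpi. Abca8b, a lipid transporter, was 249, 16.3 and 15.3 and 549, 39.3 and 36.1 CPM. All 3 were far lower at 7 dpi in both sorts, while Angptl7 at 21 dpi was near its uninjured level in the Gli1- cells. Ccl11, the chemokine of eosinophils, was 543, 68.6 and 23.6 and 1844, 207 and 69.9 CPM, lower by 22.9-fold and 26.4-fold at 21 dpi. The retrotransposon-derived Rtl4, the aminopeptidase Lvrn, Rtn1, Plcxd3 and the monooxygenase Fmo2 were the rest of the 7 dpi group beside Inmt and Chad. At 21 dpi the group also held the receptors Grm8, Adra1a and Chrm3, the synaptic adhesion protein Lrrtm3 and the globin Hba-a1.

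The genes with the widest rise at 7 dpi were in part keratins. Krt14, a keratin of basal epidermis, was 8.67, 2825 and 1288 CPM in the Gli1+ and 0, 106 and 15.6 CPM in the Gli1- cells, and Krt5, its partner, 2.71, 893 and 357 and 0, 25.6 and 4.01 CPM, with Krt6a and Krt16 in the same group. In the Ptprc or Cdh5 barcodes Krt14 was 135, 3350.1 and 1027 CPM and 0, 59.7 and 37.4 CPM, above the Pi16- Dpp4- cells in the Gli1+ uninjured and 7 dpi and the Gli1- 21 dpi libraries. The 4 epidermal markers summed to 418, 5464 and 1827 CPM in the Gli1+ and 10.9, 148 and 53.8 CPM in the Gli1- cells, and all 4 had UMIs in the Gli1+ libraries. Without clusters 8 and 11, a setting added after the data were seen, the sums were 31.3, 1866 and 199 and 11, 30.9 and 53.1 CPM. Krt5, Krt14 and Krt1 rose at both times, with a Gli1- median of 6.07 at 7 dpi that was 4.78 with genes at 0 set at their bound.

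The same group held a collagenase and a growth factor. Mmp13, the collagenase of cartilage and bone remodelling, was 0, 33.2 and 762 CPM in the Gli1+ and 0, 26.9 and 1488 CPM in the Gli1- cells, at least 469-fold and at least 3813-fold higher at 21 dpi. Ereg, a ligand of the epidermal growth factor receptor, was 0, 124 and 168 and 0.65, 72.5 and 209.8 CPM. Brinp1, a brain-expressed regulator of the cell cycle, had no UMI in either uninjured library and reached 61.5 and 70.1 CPM at 7 dpi. The linker histone H1f5 was also in this group, and at 21 dpi the stromelysin Mmp10 and the T cell receptor delta constant gene Trdc joined. Mmp10 and Trdc were leading genes of cluster 4, at 201 and 129 CPM against 1.56 and 5.09 CPM in the other Pi16- Dpp4- cells. Of the 157 cells of that cluster, 46 and 58 had a UMI of them.

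Without clusters 8 and 11, 657 genes were higher and 603 lower at 7 dpi, of which 599 and 562 were also called with all cells, and 508 and 540 at 21 dpi, of which 454 and 517 were. Summed levels of the markers of other cell types over the 6 libraries ran from 5.18 to 31.4 CPM for 7 immune, 7.74 to 70.9 for 5 endothelial, 7.33 to 46.6 for 5 skeletal muscle, 8.14 to 63.2 for 4 Schwann, 0.814 to 164 for 4 red cell and 81.3 to 803 CPM for 5 mural genes. Cdh5 and Ptprc were at 0 by choice, and the T cell gene Cd3e was at 0 outside the Gli1+ uninjured library and the Schwann cell factor Sox10 in all 3 Gli1+ libraries. Acta2, the smooth muscle actin also made by activated fibroblasts, rose at both times, and the pericyte gene Rgs5 at 21 dpi. Without cluster 4, Rgs5 was 3.28, 11 and 25.7 CPM in the Gli1+ and 82.7, 42.4 and 50.03 CPM in the Gli1- cells, lower at 21 dpi than before injury in the latter, and Acta2 was 4.92, 596 and 116 and 82, 414 and 116 CPM, below a 2-fold rise at 21 dpi in the Gli1- cells. Without cluster 4, 423 genes were higher and 465 lower at 21 dpi, of which 381 and 440 were called with all cells, and 639 and 587 at 7 dpi, of which 620 and 570 were. The part of the other cell types in the results over time was not tested.

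Between the sorts, Gli1+ cells were higher than Gli1- cells at all 3 times for 62 of 8902 genes (0.696%) and lower for 27 (0.303%). In 10 of the 62, both sums held at most 3 UMIs at some time, which leaves 52, and with the added 0.5 counts scaled to the size of each sum 56 of the 62 were called. The highest were epidermal. Sfn, the epithelial 14-3-3 sigma, was 107, 704 and 302 CPM in the Gli1+ and 1.43, 14.4 and 7.18 CPM in the Gli1- cells, Dsp, the desmosomal protein desmoplakin, 48.2, 185 and 65.1 and 0.52, 4.3 and 1.48 CPM, and Ly6d, a surface protein of keratinocytes, 154, 519 and 240.4 and 0, 14.4 and 4.01 CPM. The uninjured level of these genes came from 1 Gli1+ cell of cluster 8, which held 181 of 197 UMIs of Sfn, all 89 of Dsp and 283 of 285 of Ly6d. Without clusters 8 and 11, the Gli1+ uninjured levels were 8.95, 0 and 1.12 CPM, and the epidermal sum there went from 418 to 31.3 CPM. Lypd3, Fgfbp1, Stfa1, Dapl1, Calm4, Krt5 and Chit1 completed the group, and all 4 epidermal markers were called. Without clusters 8 and 11 the counts were 33 higher and 25 lower, of which 32 and 22 were called with all cells, and the share of higher genes went from 69.7 to 56.9%. Sort and sex cannot be told apart in uninjured tendon over all cells. Among male cells only, 47 Gli1+ and 829 Gli1- uninjured cells, 21 of the 62 higher genes had more than 3 UMIs in either sum, and 7 of these passed the ratio before injury. All 27 lower genes kept their direction and 16 passed it. These male values were added after the data were seen.

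Of the lists other than those of other cell types, Top2a was called higher in the Gli1+ cells, and at the levels given above its uninjured ratio rested on 3 against 5 UMIs. Top2a was 144 CPM in the epidermal cluster 8 and 101 CPM in cluster 5, and 116 of the 119 cells of cluster 8 came from the Gli1+ 7 and 21 dpi libraries. Igfbp2 at 0, 36 and 31.1 against 0, 3.95 and 8.02 CPM and Moxd1, a monooxygenase-like protein of the perineurial list, at 1.08, 29.6 and 17.7 against 0.39, 14.8 and 5.7 CPM passed the ratio as well. Igfbp2 had no UMI in either uninjured library and Moxd1 at most 3, so neither is counted as different before injury. Moxd1 was also highest in cluster 8, at 88.2 CPM. Moxd1 rose after injury in both sorts. Genes lower in the Gli1+ cells included Cxcl13, a chemokine for B cells, at 23.8, 4.88 and 8.96 against 178, 84.8 and 94.8 CPM, and Ccl11 at 543, 68.6 and 23.6 against 1844, 207 and 69.9 CPM. Adh1, an alcohol dehydrogenase that also oxidises retinol, was 64.5, 15.3 and 5.29 against 239, 55.2 and 19.8 CPM. The order held at each time for each of these genes.

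The remaining genes lower in Gli1+ cells belonged in part to other cell types. They held Cdh19 of the Schwann lineage, the fatty acid carrier Cd36, the globins Hba-a1 and Hbb-bs, and the receptors Adra1a and Chrm3, and Rgs5 was called lower among the mural genes. Without cluster 4, Rgs5 at 21 dpi was 25.7 against 50.03 CPM, less than the 2-fold difference that the call needs. No gene of the Hedgehog, BMP, GNAS/PKA, PDGF, repair matrix, inflammation, complement, tenocyte, cartilage or bone lists was called between the sorts.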

How the data were processed

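The authors sorted cells by the Gli1 lineage reporter, prepared 10x libraries and deposited 1 matrix of raw UMI counts per library, 33696 genes by barcode. The submitters' notes name Cell Ranger 3.1.0, STAR and mm10, while the header of the matrices names version 9.0.0, so no coordinates are given. Counts were not normalized before deposit. Here they were summed over the barcodes of a group in a library and scaled to counts per 1000000 (CPM). Log2 ratios had 0.5 counts added; genes with a mean of 10 CPM or more were tested, leaving out the 8 rule genes and 26 repeated symbols, with a call at a log2 ratio of 1 in every column (6 libraries, both sorts or 3 times). Ambient RNA was not removed. Doublets were kept, and Scrublet (scanpy 1.11.5) served as an alternative, as did TMM factors (edgeR 4.0.16 in R 4.3.3), used only for scaling. Clusters used 2000 variable genes, 30 components and Leiden resolution 0.5. Exact binomial and Poisson 95% intervals (scipy 1.17.1) cover counting error only. The calls were tested on simulated counts: for the comparison with other Pdgfra barcodes (8925 genes) 99% of genes changed by a log2 of 2 and 80% of those changed by 1.3 were recovered, and for 7 dpi against uninjured (8902 genes) 100 and 86%.

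The cells and gene lists were chosen with earlier results of these data known. Named genes were the markers, up to 12 called genes a direction with the largest smallest ratio (10 for time and sort), leaving out mitochondrial, sex-linked and unnamed models, and from each list up to 4 genes of highest level plus called ones. Genes named from the counts at a log2 of 0.5 and as leading genes of clusters were picked after their values were seen. Barcodes below the quality limits were left out. A few genes that the naming rule or the lists hold are not reported here.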

Additional observations from a re-analysis of the deposited data

Results flagged for a closer look

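Some genes moved in opposite directions after injury in the Gli1+ and Gli1- cells, by a log2 ratio of at least 1 in each: 25 of 8902 at 7 dpi (0.281%) and 20 at 21 dpi (0.225%), leaving out genes with at most 3 UMIs in both sums. The 3 with the widest split at each time are given here. The difference between the sorts was not tested, and several ratios rest on few UMIs and on the 0.5 counts added.

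At 7 dpi, S100g, a vitamin D dependent calcium-binding protein, changed by -2.79 in the Gli1+ and 2.79 in the Gli1- cells, from 37.9 to 5.44 CPM and from 1.3 to 9.4 CPM. Bglap2, an osteocalcin gene, changed by -4.23 and 2.63, from 14.1 to 0.697 CPM and from 0.780 to 5.18 CPM. Its near-identical copy Bglap can share its reads. Nlgn1, the synaptic adhesion protein neuroligin-1, changed by -2.49 and 2.14, from 29.8 to 5.30 CPM and from 1.3 to 5.97 CPM. In Gli1+ uninjured tendon the cell with most UMIs of each gene held 20 of 70 for S100g, 25 of 26 for Bglap2 and 30 of 55 for Nlgn1. In all 3 the Gli1+ uninjured cells had the higher starting level.

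At 21 dpi, the epithelial metallothionein Mt4 changed by -2.34 in the Gli1+ and 6.76 in the Gli1- cells, from 173 to 34.2 CPM and from 0 to 6.97 CPM. Calm4, a calmodulin-like protein of epidermis, changed by -2.04 and 4.95, from 289 to 70.04 CPM and from 0 to 1.9 CPM. In Gli1+ uninjured tendon 1 cell of cluster 8 held 314 of 319 UMIs of Mt4 and 531 of 533 of Calm4, and in the Gli1- cells at 21 dpi 1 cell held 26 of 33 of Mt4. Without clusters 8 and 11, Mt4 went from 2.8 to 1.8 CPM and Calm4 from 1.12 to 7.67 CPM in the Gli1+ cells, so that neither gene kept a fall by a log2 ratio of 1. Dach1, a transcriptional cofactor, changed by 2.29 and -3.98, from 0 to 1.22 CPM and from 44.9 to 2.74 CPM. Its 6 UMIs at 21 dpi in the Gli1+ cells were all in clusters 8 and 11.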

How the results depend on the processing

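With 1 library per condition, no setting is a check against replicate error, and the cause of each shift below was not tested unless its construction gives it. Thinning to 2000 UMIs, which lowers the chance of reading each rule gene, gave shares of 7.22, 6.09 and 4.01% in Gli1+ libraries and of 10.01, 10.9 and 5.69% in Gli1- libraries (uninjured, 7 dpi, 21 dpi), which turned the order of uninjured and 7 dpi in both sorts, within overlapping intervals. A Ly6a limit of 1 UMI gave 11.4, 12.5 and 7.66% in the Gli1+ libraries, and 22.6 and 8.49% in Gli1- uninjured and 21 dpi. A limit of 10% mitochondrial UMIs and doublet removal moved no share beyond its interval.

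For the counts of genes, a mean of at least 1 CPM gave 2 higher and 6 lower than other Pdgfra barcodes, 4 higher than Pi16+ or Dpp4+ cells, 1287 higher and 1218 lower at 7 dpi, 1004 and 1246 at 21 dpi, and 252 and 84 between the sorts. Doublet removal left 0 genes lower than other Pdgfra barcodes, and TMM scaling 0 higher than Pi16+ or Dpp4+ cells. Settings added after the data were seen were the log2 limit of 0.5, with 1 higher and 18 lower and with 18 higher and 73 lower in these comparisons, the scaling of the added 0.5 counts to the size of each sum, with 2 genes lower than other Pdgfra barcodes, the removal of clusters 8 and 11, with 2 genes higher than Pi16+ or Dpp4+ cells and 33 between the sorts, and the removal of cluster 4, with 0 higher than Pi16+ or Dpp4+ cells. Leaving out each library in turn gave 1 to 4 genes lower than other Pdgfra barcodes (4 without Gli1- 21 dpi, 2 without Gli1+ 21 dpi or Gli1- 7 dpi) and 1 to 5 higher than Pi16+ or Dpp4+ cells (5 without Gli1+ 7 dpi, 3 without Gli1- 7 dpi, 2 without Gli1- uninjured); fewer columns have to pass then. Asking for more than 3 UMIs in a sum of every column kept 628 and 584 genes at 7 dpi, 462 and 536 at 21 dpi and 52 and 27 between the sorts. Thinned cells kept 467 of 629 higher and 351 of 585 lower genes at 7 dpi and 343 of 466 and 313 of 537 at 21 dpi, and the mean of per-barcode CPM 534 and 393 and then 397 and 354. Higher genes outnumbered lower ones at 21 dpi under TMM scaling (653 and 401), thinning (461 and 382) and the mean of per-barcode CPM (471 and 367), unlike the 466 and 537 of all cells. The planned comparison within 1 sex over all libraries was not run, since 5 libraries held cells called as 1 sex only; it was replaced by the values within 1 sort and, between the sorts, by male uninjured cells. With 1 library per condition no test was run, with or without the time point as a block; the ratios were taken within a library, or between the sorts at 1 time. The smallest sum was that of the Gli1+ uninjured cells, with 1845565 UMIs in 189 cells.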
